A study of Mus musculus with 20 samples.

Results

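The sites described here are 1642 ATF4 peaks of mouse C2C12 myoblasts that lay between genes and were called only in cells treated with thapsigargin. A peak of the thapsigargin list was taken when it shared no base with a DMSO peak and its centre lay outside every protein-coding gene, more than 1 kb and at most 50 kb from the nearest protein-coding gene end. The sites were chosen by the positions of called peaks in the 2 lists. They made up 19.1% of the 8619 thapsigargin peaks and 21.0% of the 7822 thapsigargin peaks without a DMSO overlap. Presence in one list and absence from the other chose the sites, so that difference is a description and carries no test. Of the 1833 thapsigargin peaks in this position, 1642 or 89.6% had no DMSO overlap (95% Wilson interval 88.1 to 90.9%), beside 90.8% of all 8619 thapsigargin peaks.

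The series profiled 5 targets by CUT&Tag, a method in which an antibody directs a transposase to cut chromatin where its target is bound. C2C12 is an established mouse myoblast line. The groups used are ATF4 in wild-type C2C12 cells given 100 nM thapsigargin for 6 h, and ATF4 in wild-type C2C12 cells given DMSO for 6 h, with 2 samples each. Each treatment had 1 deposited peak list, of 8619 peaks after thapsigargin and 803 after DMSO, with positions but no height or score. Read depth is unknown, no value has a replicate error, and absence from the DMSO list is absence of a called peak, not of ATF4. Intervals below cover counting error over peaks only, peaks are not replicates of a treatment, and no p-values were computed. Marker expression could not be read from peak lists, so the cell type rests on the labels. All peaks lay on chromosomes 1 to 19 and X.

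Thapsigargin inhibits SERCA, the pump that moves calcium into the endoplasmic reticulum (ER), and the loss of ER calcium disturbs protein folding. The kinase PERK then phosphorylates the translation factor eIF2α, which lowers protein synthesis in general but raises translation of ATF4, a basic leucine zipper activator. ATF4 pairs with C/EBP factors on composite C/EBP-ATF elements, and its textbook targets make and carry amino acids, charge tRNAs and report stress. Binding sites between genes can lie in promoters of non-coding genes or in distal elements, and the nearest gene is not always the one such an element acts on.

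Sequence could be shown for 39 sites that held 1 or more whole promoter windows of the RefSeq promoter table (GRCm38.p6), each running from 250 bases before to 50 bases after a gene's start. These sites held 40 windows, all 40 of long non-coding RNA (lncRNA) genes, and the promoter windows of coding genes touched none of the 1642 sites. The absence of coding windows was largely set by the rule, which keeps site centres more than 1 kb from coding gene ends. The promoter table also gave a strand for only 17274 of 21631 coding genes. The core of the composite element was searched as TGATGNAA on both strands, and 5 of the 40 windows held it, a share with a 95% Wilson interval of 5.46 to 26.1%. The share was 4.90% in 2326 windows inside all other thapsigargin peaks, 4.63% in 11573 lncRNA windows and 3.87% in all 32585 windows. The 5 windows are printed because they carry the letters ATF4 and C/EBP pairs are known to bind. All are 5′ to 3′ on the strand of the lncRNA, with capitals at each match to any of the 6 motifs searched here.
5033421B08Rik: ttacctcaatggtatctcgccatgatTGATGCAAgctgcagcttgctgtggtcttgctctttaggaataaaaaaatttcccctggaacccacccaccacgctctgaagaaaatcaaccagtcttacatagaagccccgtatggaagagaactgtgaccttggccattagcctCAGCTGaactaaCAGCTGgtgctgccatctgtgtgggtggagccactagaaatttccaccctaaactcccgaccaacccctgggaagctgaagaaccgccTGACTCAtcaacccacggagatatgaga
Gm34488: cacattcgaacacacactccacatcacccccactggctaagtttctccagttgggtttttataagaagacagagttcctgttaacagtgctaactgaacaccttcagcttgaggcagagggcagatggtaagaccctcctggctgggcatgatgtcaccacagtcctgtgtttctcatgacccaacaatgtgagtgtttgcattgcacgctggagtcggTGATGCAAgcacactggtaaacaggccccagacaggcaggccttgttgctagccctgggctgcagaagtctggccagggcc
Gm38982: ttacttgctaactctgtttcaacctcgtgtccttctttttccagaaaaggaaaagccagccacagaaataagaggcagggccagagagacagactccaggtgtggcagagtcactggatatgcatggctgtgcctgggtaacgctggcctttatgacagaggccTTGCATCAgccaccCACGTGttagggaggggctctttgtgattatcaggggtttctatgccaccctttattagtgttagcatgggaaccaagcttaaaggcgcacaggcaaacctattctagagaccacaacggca
Gm33801: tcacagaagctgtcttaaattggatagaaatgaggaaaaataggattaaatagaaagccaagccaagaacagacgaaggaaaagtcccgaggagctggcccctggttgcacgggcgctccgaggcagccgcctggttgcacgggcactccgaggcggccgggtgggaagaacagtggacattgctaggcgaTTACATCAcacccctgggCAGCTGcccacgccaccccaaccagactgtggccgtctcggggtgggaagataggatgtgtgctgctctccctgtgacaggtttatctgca
Gm36089: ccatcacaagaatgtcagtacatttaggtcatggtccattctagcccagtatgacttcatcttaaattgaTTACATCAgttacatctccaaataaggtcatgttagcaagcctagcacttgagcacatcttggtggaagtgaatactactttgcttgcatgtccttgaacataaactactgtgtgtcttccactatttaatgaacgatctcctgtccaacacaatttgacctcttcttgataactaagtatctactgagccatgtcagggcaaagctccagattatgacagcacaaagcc

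The window of 5033421B08Rik (chr12:8510913-8511212, plus strand) held TGATGCAA at -224, counted from the lncRNA start. It lay in a site of 2091 bp whose nearest coding gene, at 10.6 kb, was Rhob, a small GTPase of the cytoskeleton and endosomes. The window of Gm34488 (chr11:3566160-3566459, minus strand) held TGATGCAA at -31, and its site lay 26.9 kb from Smtn, the smooth muscle protein smoothelin. In the windows of Gm38982, Gm33801 and Gm36089 the core stood in the opposite direction. The window of Gm38982 (chr7:29555579-29555878, minus strand) held it as TTGCATCA at -86, with an E-box CACGTG at -72, 36.7 kb from Sipa1l3. That of Gm33801 (chr17:25539645-25539944, minus strand) held TTACATCA at -59, 26.2 kb from the transcription factor gene Sox8. That of Gm36089 (chr10:24552995-24553294, plus strand) held TTACATCA at -180, 42.4 kb from Ccn2, a matrix-associated growth factor. A match describes letters in a window and is not evidence of binding at those letters.

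The palindromic cAMP response element TGACGTCA was in 2 of the 40 windows (5%), against 4.86% of windows in all other thapsigargin peaks, 0.976% of lncRNA windows and 1.80% of all windows. These 2 windows, of Snhg15 (chr11:6528711-6529010, minus strand) and Gm41208 (chr14:73014119-73014418, plus strand), are printed with that of D730003I15Rik (chr1:191224204-191224503, plus strand). The last was chosen because the nearest coding gene is Atf3, a basic leucine zipper gene of the stress response.
Snhg15: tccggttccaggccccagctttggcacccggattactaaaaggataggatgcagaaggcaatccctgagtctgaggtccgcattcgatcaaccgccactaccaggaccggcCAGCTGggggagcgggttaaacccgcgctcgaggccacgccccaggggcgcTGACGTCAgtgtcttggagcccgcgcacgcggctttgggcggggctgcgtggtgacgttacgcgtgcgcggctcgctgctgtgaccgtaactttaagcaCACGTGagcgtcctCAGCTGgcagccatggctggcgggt
Gm41208: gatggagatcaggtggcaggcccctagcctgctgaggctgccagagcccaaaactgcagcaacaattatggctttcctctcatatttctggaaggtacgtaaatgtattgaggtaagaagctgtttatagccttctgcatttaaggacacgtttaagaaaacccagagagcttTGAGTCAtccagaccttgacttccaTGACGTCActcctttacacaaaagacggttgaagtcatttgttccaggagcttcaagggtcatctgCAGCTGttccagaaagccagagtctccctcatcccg
D730003I15Rik: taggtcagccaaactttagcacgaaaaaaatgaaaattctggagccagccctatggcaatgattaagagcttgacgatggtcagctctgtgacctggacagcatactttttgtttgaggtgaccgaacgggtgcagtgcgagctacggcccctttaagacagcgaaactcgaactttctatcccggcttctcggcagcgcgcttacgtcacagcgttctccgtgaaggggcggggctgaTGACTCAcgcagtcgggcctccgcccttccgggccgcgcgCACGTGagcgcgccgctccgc

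Snhg15, host gene of a small nucleolar RNA, had the TGACGTCA element at -88 and an E-box at 11, within a site of 1367 bp that lay 7.65 kb from Myo1g. Gm41208 had it at -52 and an AP-1 element, TGAGTCA, at -77. D730003I15Rik had an AP-1 element at -11 and an E-box at 29, within a site of 1563 bp. The other 4 motifs, on both strands, were the AP-1 element TGANTCA in 6 of 40 windows (15%), the C/EBP site TTGCNNAA in 3 (7.5%), and the E-boxes CACGTG and CAGCTG. AP-1 elements were in 5.33% of windows in other thapsigargin peaks, 9.31% of lncRNA windows and 7.85% of all windows, and C/EBP sites in 7.65, 11.9 and 10.9% of these. The E-box CACGTG, bound by clock and MYC-type factors, was in 10 windows (25%, interval 14.2 to 40.2%), against 9.54% in other thapsigargin peaks, 5.90% of lncRNA windows and 7.20% of all windows. The muscle-type E-box CAGCTG was also in 10 (25%), against 13.5, 17.6 and 16.4%. No 2 of these motifs can match the same bases in full, but they can overlap in part. GC content differed too, with a median of 54.7% in the 40 windows, 63.0% in windows of other thapsigargin peaks, 48.3% in lncRNA windows and 53.0% in all windows, and its part in these shares was not tested. Further lncRNA genes whose start window lay inside a site were the small nucleolar RNA hosts Snhg7, Snhg8 and Snhg16, the miR-22 host Mir22hg, Oip5os1 and Rab10os.

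The sites were spread over the whole allowed distance rather than gathered at its inner edge. Their median distance to the nearest coding gene end was 14.4 kb, with quartiles of 6.42 and 26.9 kb. Set against the 596 Mb of sequence that meets the position rule, they numbered 2.75 per Mb (exact Poisson interval 2.62 to 2.89). The density was 2.82 per Mb at 1 to 2 kb, 2.93 at 10 to 20 kb and 2.48 at 40 to 50 kb, and the intervals of these 3 bins overlapped. Thapsigargin-only peaks further than 50 kb from coding genes had 1.09 per Mb (1.03 to 1.16), those inside genes 2.68 (2.58 to 2.79), and those within 1 kb of a gene end 32.0 (30.7 to 33.2). The sites thus lay about as densely as the peaks inside genes, and much less densely than the peaks at gene ends.

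**Figure D1:**
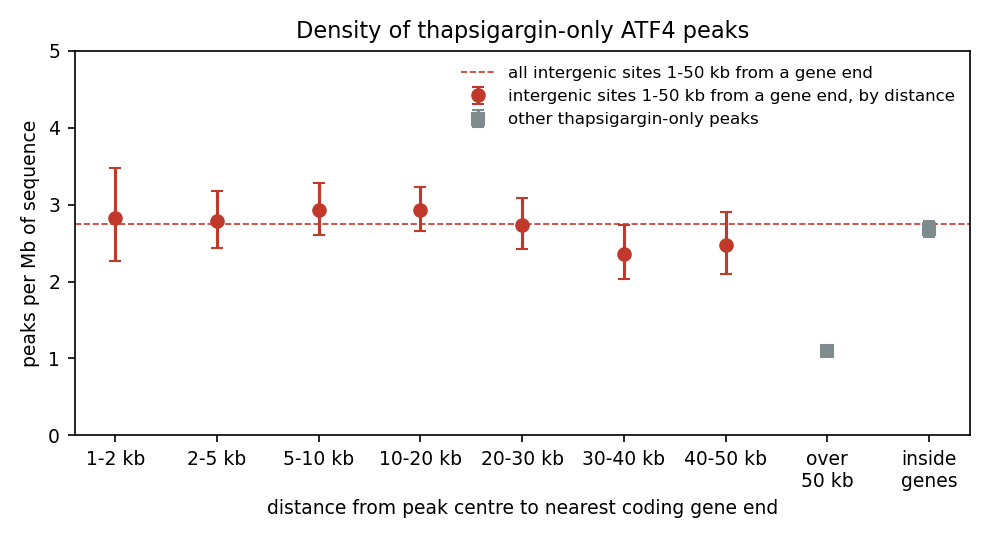
Density of thapsigargin-only ATF4 peaks, in peaks per Mb of sequence of the same position (y axis), for the intergenic sites by distance to the nearest coding gene end (kb, x axis) and for peaks further than 50 kb from coding genes or inside them; the dashed line is the density of all the sites, and bars on points are exact 95% Poisson intervals. The intergenic sites stay between 2.36 and 2.93 per Mb from 1 to 50 kb.

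Strand was known for 17274 of 21631 coding genes, and 377 sites had a nearest gene without it. Of the rest, 699 lay upstream of the gene start (2.75 per Mb, 2.55 to 2.96) and 566 lay downstream of its end (2.63 per Mb, 2.42 to 2.86). The intervals of both sides overlapped. Downstream sites had 3.12 per Mb at 1 to 5 kb (2.61 to 3.69), 2.69 at 5 to 20 kb and 2.32 at 20 to 50 kb (2.001 to 2.67). The intervals of the nearest and furthest bins overlapped. Upstream sites had 2.65, 2.94 and 2.60 per Mb at the same distances. Between divergent genes, which start on either side of the gap, 337 sites lay at 3.17 per Mb (2.84 to 3.53). Between genes in tandem 566 sites lay at 2.55 per Mb (2.34 to 2.76), and between convergent genes 184 lay at 2.58 (2.22 to 2.98). For 555 sites (33.8%) the orientation was unknown, at 2.83 per Mb (2.60 to 3.07).

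Among autosomes the density ran between 1.71 per Mb on chromosome 7 and 4.53 on chromosome 11, with a median of 2.77. Chromosome X had 23 sites, at 0.506 per Mb (0.321 to 0.759), below every autosome. That low number was not particular to the sites, since X held 1.40% of them, 0.779% of the far intergenic peaks, 1.36% of those inside genes and 1.64% of those at gene ends, all without DMSO overlap.

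Width was the sole measure of size that the lists allow. The sites were 292 to 2940 bp wide with a median of 998 bp and quartiles of 761 and 1255 bp. Medians were 1005 bp for far intergenic peaks, 1018 bp for peaks inside genes and 996 bp for peaks at gene ends, all thapsigargin-only. The 191 peaks in the same position with a DMSO overlap were wider, at a median of 1372 bp (quartiles 1107 and 1704 bp). Peaks with a DMSO overlap in the other positions had medians of 1367.5 bp (far intergenic), 1373 bp (inside genes) and 1390.5 bp (gene ends). Width thus varied little with position and was larger, in each position, in peaks that overlapped a DMSO peak. A wider peak can also meet the 1 bp overlap rule more easily, and the part of this was not tested. Only 42 sites (2.56%) reached 2000 bp.

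**Figure D2:**
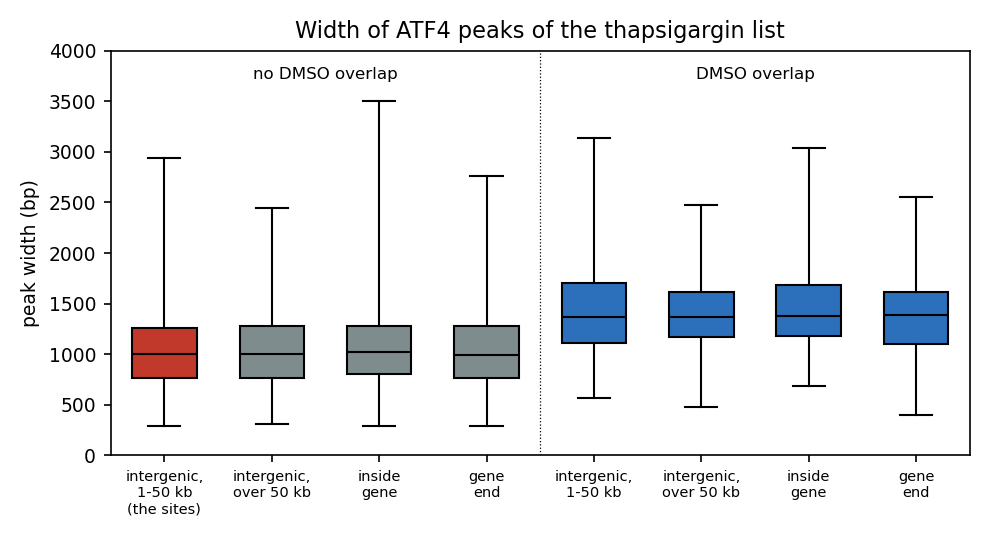
Width of thapsigargin ATF4 peaks (bp, y axis) by position and by overlap with a DMSO peak; boxes give the quartiles and median, and whiskers the lowest and highest width. The intergenic sites have a median of 998 bp, against 1372 bp for peaks in the same position that overlap a DMSO peak.

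The widest site, 2940 bp at chr8:84201274-84204213, lay 8.20 kb downstream of Zswim4. The next were 2746 bp wide at 36.5 kb upstream of the collagen gene Col24a1 and 2699 bp wide at 23.4 kb downstream of Nfkbia, which encodes the NF-κB inhibitor IκBα (chr12:55464611-55467309). A site of 2448 bp stood 27.6 kb upstream of Jdp2, a repressor of AP-1 and ATF sites, and one of 2414 bp 9.58 kb upstream of the pluripotency and growth arrest factor Klf4. The others of the 15 widest were nearest to Sag, BC035044, Slc12a8, Tubb2b, Prps1l1, Irf2bp2, Rab10, Dnajb6, Mtap and Man2a1. Their widths ran between 2248 and 2482 bp.

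At the inner limit, the 5 sites just inside lay 1.01 to 1.08 kb from 1600014C23Rik, Plaur, Baalc, Abt1 and Npl. The 5 thapsigargin-only peaks just outside lay 0.935 to 0.994 kb from Zswim6, Inpp5d, Trappc3, Ern1 and Tcte2, and that of Ern1, which encodes the ER stress sensor IRE1α, was 2720 bp wide. At the outer limit, 5 sites lay 49.5 to 49.8 kb from Zfp236, Eif4g2, Antxr2, Gm38821 and Slc35b4. The 5 peaks just outside lay 50.1 to 50.7 kb from Akr1b3, Ror1, Pde4d, Lnx1 and Pim1. These peaks are given to show where the limits fall, and were picked for their distance.

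The sites had 1423 nearest genes, 6.58% of 21631 coding genes. Of these, 1224 genes had 1 site, 180 had 2, 18 had 3 and 1 had 4. The gene with 4 was Fos, a subunit of the AP-1 factor. Its sites were 615, 945 and 1012 bp wide at 37.5, 18.4 and 1.75 kb upstream, and 973 bp wide at 20.7 kb downstream. A thapsigargin peak also lay at an end of Fos, and no DMSO peak did. Of the genes with 3 sites, Ier5 and Irf2bp2, an immediate early gene and a transcriptional corepressor, had the largest summed widths, 4826 and 4310 bp. Prps1l1, Galnt12, Mtap, Rab11fip4, Ptgs1, Basp1 and Gpc1 followed, with 3760 to 4246 bp.

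**Figure D3:**
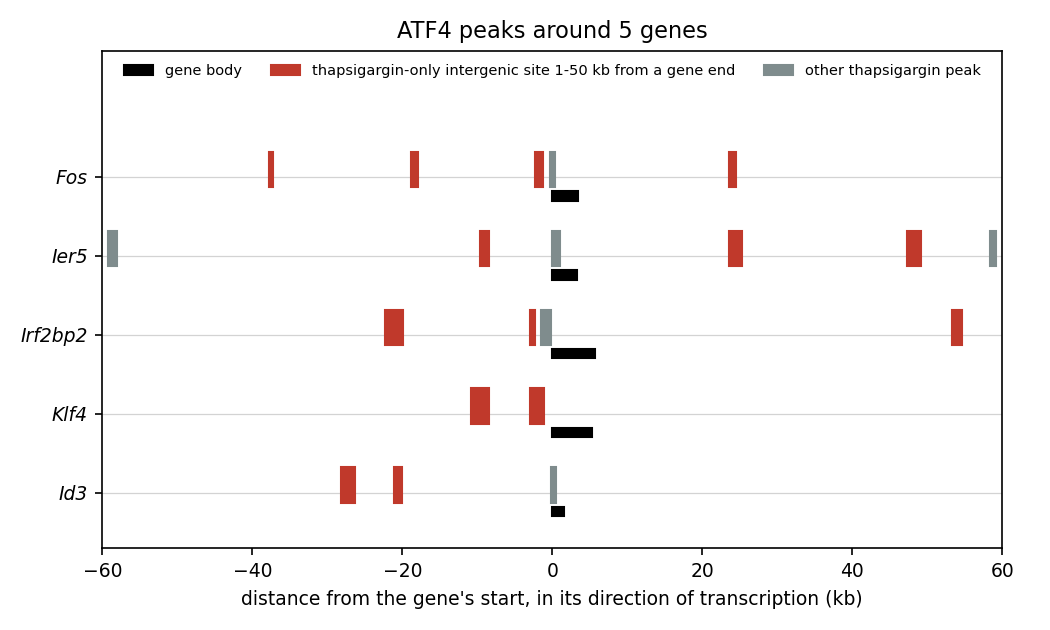
ATF4 peaks of the thapsigargin list around 5 genes that were chosen after their values were seen; the x axis is the distance from the gene's start in its direction of transcription (kb), black bars are gene bodies, red bars the intergenic sites and grey bars other thapsigargin peaks. Fos has 4 sites, Ier5 and Irf2bp2 have 3 each, and Klf4 and Id3 have 2 each.

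A thapsigargin peak within 1 kb of an end was more frequent at the nearest genes of the sites than at coding genes in general. That held for 361 of 1642 sites (22.0%, 95% Wilson interval 20.05 to 24.1%), whereas 15.1% of coding genes had such a peak. Since genes beside long gaps can be nearest to more sites, the sequence itself is the closer comparison: 12.2% of the 596 Mb had such a gene as its nearest. Density was 4.96 sites per Mb beside genes with an end peak and 2.45 beside genes without one. Far intergenic peaks had a share of 21.9% (19.5 to 24.5%) and peaks inside genes one of 16.7% (15.3 to 18.1%), so the share of the sites was not particular to them among intergenic peaks. The size of the share rested on counting coding genes only. With genes of every type in the rule, 10.6% of 1729 sites (9.22 to 12.1%) had a nearest gene with such a peak, against 8.45% of all 49554 genes and 4.98% of the sequence, and density was 4.17 sites per Mb beside genes with an end peak and 1.84 beside genes without one.

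By distance the share was 16.6% of 314 sites at 1 to 5 kb (12.9 to 21.1%), 22.9% of 724 at 5 to 20 kb (20.01 to 26.1%) and 23.7% of 604 at 20 to 50 kb (20.5 to 27.2%). The matching shares of sequence were 12.4, 11.9 and 12.4%, so the share of sites was above that of sequence in each bin, with overlapping intervals among the bins. In the 361 pairs the median width was 1006 bp for the site and 1030 bp for the end peak, and the site was the narrower in 188 pairs (52.1%). Of these 361 sites, 30 (8.31%) were paired with an end peak that overlapped a DMSO peak. As background, 234 of all thapsigargin peaks at gene ends overlapped a DMSO peak and 2505 did not.

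A DMSO peak at an end of the nearest gene was rare, found for 29 sites (1.77%, 1.23 to 2.52%), against 1.29% of all coding genes and 0.905% of the sequence. Density was 5.37 sites per Mb beside genes with a DMSO end peak and 2.73 beside genes without one. A gene can have an end peak in both lists, as Jdp2, Trib3, Atf3 and Stc2 did. The densities beside genes with a DMSO end peak and with a thapsigargin end peak are therefore not separate comparisons. With 803 DMSO peaks in all, and overlap barred by the rule, most DMSO peaks were far off. Only 2 sites had one within 1 kb, 39 (2.38%) within 10 kb and 247 (15.04%) within 100 kb, and the median gap was 687 kb. The median gap was 1016 kb for far intergenic peaks, 683 kb for peaks inside genes and 596 kb for peaks at gene ends, all without DMSO overlap.

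Among thapsigargin-only peaks, the sites had a close neighbour in the thapsigargin list more often than far intergenic peaks and peaks at gene ends. Another peak lay within 12500 bp, edge to edge, of 357 sites (21.7%, 19.8 to 23.8%), against 11.9% of far intergenic peaks (10.0 to 14.0%), 15.01% of peaks at gene ends (13.7 to 16.5%) and 19.5% of peaks inside genes (18.0 to 21.0%). The peaks in the same position with a DMSO overlap had a higher share, 28.8% (22.8 to 35.6%), and a median gap of 31.4 kb. The median gap was 39.3 kb for the sites, 74.1 kb for far intergenic peaks, 49.0 kb for peaks at gene ends and 44.0 kb for peaks inside genes. For 201 of the 357 (56.3%) the closest neighbour was another of the sites, and for 86 (24.1%) it was a thapsigargin-only peak at a gene end. No 2 thapsigargin peaks were closer than 300 bp, and the smallest gap between DMSO peaks was 261 bp.

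**Figure D4:**
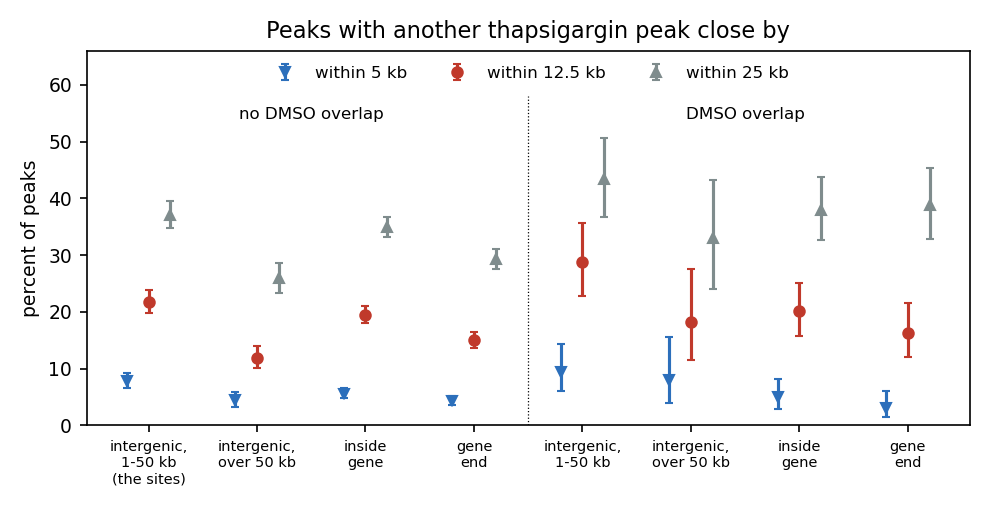
Percent of thapsigargin ATF4 peaks (y axis) with another thapsigargin peak within 3 gaps (symbols), by position and by overlap with a DMSO peak (x axis); bars are 95% Wilson intervals. At a gap of 12500 bp (circles), the intergenic sites are at 21.7%, above far intergenic peaks at 11.9% and peaks at gene ends at 15.01%. Peaks inside genes are at 19.5%, with an interval that overlaps that of the sites. These values are for peaks without DMSO overlap.

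Joined at gaps of at most 12500 bp, 209 sites formed 99 runs, 88 of 2 sites and 11 of 3. Of the runs of 3, the longest, 20333 bp at chr8:56265761-56286093, lay by Hpgd, the prostaglandin-degrading dehydrogenase. The next, 20065 bp at chr17:83304246-83324310, lay by Eml4, a microtubule-associated protein. The next 3 lay by the proteoglycan gene Gpc1 (16857 bp), with Hdac11 and Fbln2 as nearest genes (16296 bp), and by Serpina12 (12618 bp).

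Gene lists were read against the 6.58% of coding genes nearest to a site, and against 2.75 sites per Mb, since lists differ in how much sequence lies around their genes. The median number of sites per gene was 0 in each of the 17 lists and over all genes. Among 28 genes listed under the integrated stress response, not all of them regulators, 6 were nearest to a site (21.4%, 6.08 sites per Mb). A thapsigargin peak lay at an end of 19 of the 28. The 6 genes nearest to a site are named here. They were Jdp2, Trib3, Atf3, Stc2, Vldlr and Trib2. The site of Trib3, a pseudokinase that feeds back on ATF4, was 1772 bp wide at 5.97 kb upstream. That of Atf3 was 1563 bp wide at 41.4 kb, and that of Stc2, a secreted glycoprotein of calcium balance, 1242 bp wide at 12.1 kb. Jdp2, Trib3, Atf3 and Stc2 each also had an end peak in both lists, so at these genes the sites added to a position already called in DMSO cells.

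Among genes of amino acid supply, the best known targets of ATF4, sites lay beside transporters, while the enzymes were near the background. Of 16 transporter genes 5 were nearest to a site (31.3%, 10.1 per Mb), which were Slc38a2 with 2 sites and Slc1a4, Slc7a1, Slc38a1 and Slc7a5 with 1 each. Slc38a2, the sodium-coupled neutral amino acid transporter SNAT2, had sites of 1855 bp at 43.3 kb and 936 bp at 9.96 kb upstream. Of 21 enzymes of amino acid synthesis and one-carbon metabolism 2 were nearest (9.52%, interval 2.65 to 28.9%, 3.56 per Mb). That interval holds the 6.58% of all coding genes. Phgdh, the first enzyme of serine synthesis, had a site of 2189 bp at 16.5 kb upstream, and Mthfd1l one of 996 bp at 33.9 kb downstream. Slc38a2, Slc1a4, Slc7a1, Phgdh and Mthfd1l also had an end peak in both lists, Slc7a5 in the thapsigargin list alone and Slc38a1 in neither. A thapsigargin end peak was found for 8 of the 16 transporter genes and 13 of the 21 enzymes. None of 20 aminoacyl-tRNA synthetase genes was nearest to a site, a count of 0 that allows a share of up to 16.1%, although 13 had a thapsigargin peak at an end. Their genes had only 0.225 Mb of sequence in the required position, so few sites could have been seen there.

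Genes of protein quality control had little sequence in the required position, 0.480 Mb for ER genes and 0.317 Mb for autophagy genes. Of 26 ER chaperone and ER-associated degradation genes 2 were nearest to a site (7.69%, 4.16 per Mb) and 16 had an end peak. The 2 were Dnajb9, an ER co-chaperone, with 1420 bp at 7.26 kb, and the ER stress sensor Atf6, with 1285 bp at 2.58 kb. Of 16 autophagy genes 2 were nearest (interval 3.498 to 36.0%, 6.31 per Mb) and 12 had an end peak. The cargo receptor Sqstm1 had a site of 1370 bp at 1.67 kb, with an end peak only 0.334 kb from its edge, and Map1lc3b one of 474 bp at 5.15 kb.

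**Figure D5:**
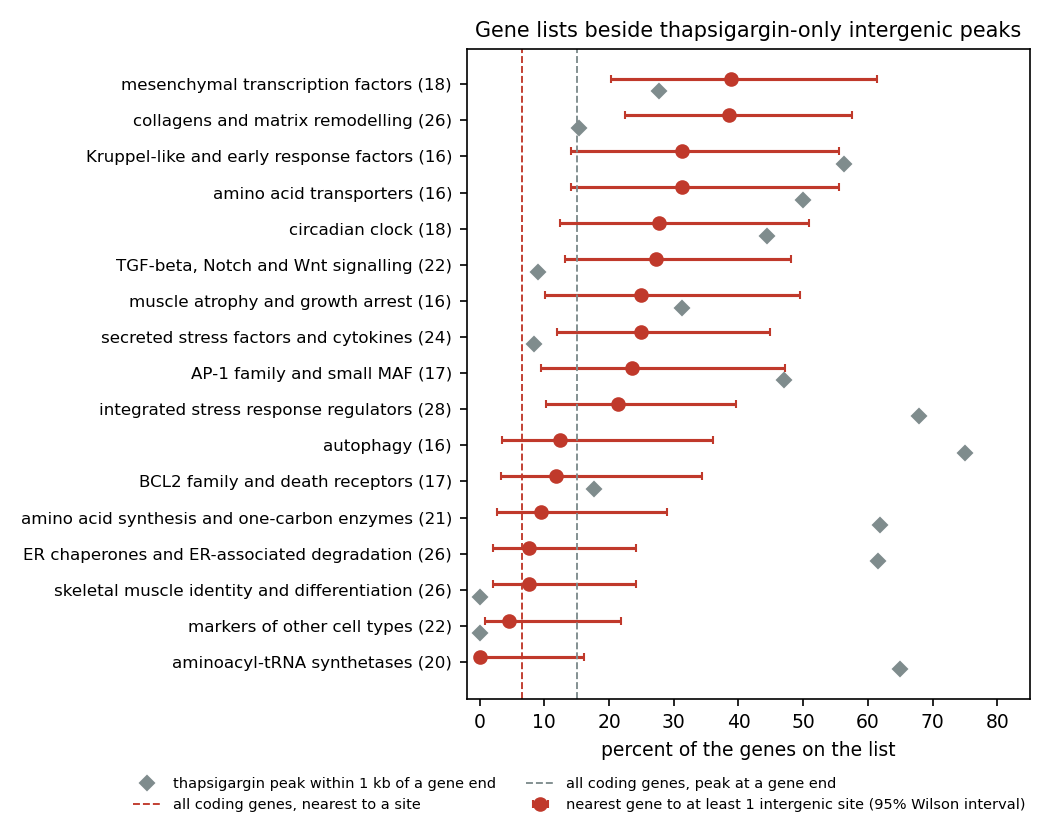
Percent of the genes of each list (number of genes in brackets) that are the nearest gene to at least 1 intergenic site (red, with 95% Wilson intervals) and percent with a thapsigargin peak within 1 kb of a gene end (grey diamonds); dashed lines give all coding genes, 6.58% and 15.1%. Mesenchymal factors (38.9%) and collagens (38.5%) lead the red points, while autophagy, integrated stress response, aminoacyl-tRNA synthetase, amino acid synthesis and ER genes hold the highest grey diamonds.

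By share of genes, matrix genes and mesenchymal factors came first, with intervals that overlapped those of most other lists. Per Mb the order differed, with the AP-1 family at 11.6, early response factors at 10.6 and amino acid transporters at 10.1 ahead of them. These densities rest on 7, 10 and 6 sites, with 4 of the 7 beside Fos, and the order was not tested. Of 26 genes of collagens and matrix remodelling 10 were nearest to a site (38.5%, interval 22.4 to 57.5%, 12 sites, 9.81 per Mb), and 4 had an end peak. The fibrillar collagen gene Col3a1 had a site of 1867 bp at 6.45 kb downstream, Col1a2 one of 1259 bp at 16.4 kb upstream and the basement membrane collagen gene Col4a1 one of 1175 bp at 28.4 kb downstream. Ccn1, Lox, which cross-links collagen, and Thbs1 had sites of 1127, 1060 and, for Thbs1, 1056 and 877 bp. Of 18 mesenchymal transcription factors 7 were nearest (38.9%, interval 20.3 to 61.4%, 10 sites, 8.65 per Mb). They included the repressor of epithelial genes Zeb1, with 1809 bp at 44.6 kb, Zeb2 with 2 sites, the Hippo pathway factors Tead1 with 2 sites and Tead4 with 1, Prrx1 with 1, and Id3, an inhibitor of basic helix-loop-helix factors. The sites of Id3 were 1858 and 1029 bp wide at 27.2 and 20.6 kb upstream.

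Early response factors were also beside many sites. Of 16 Kruppel-like and early response genes 5 were nearest to a site (31.3%, 10 sites, 10.6 per Mb). Klf4 had 2414 and 1879 bp at 9.58 and 2 kb upstream, and neither of its ends had a peak. Klf3 had 2166 and 1640 bp at 44.99 and 34.1 kb downstream, Ier5 had 3 sites, Ier3 had 1812 and 665 bp upstream and Klf6 had 838 bp at 24.0 kb. Of 17 genes of the AP-1 family and small MAF proteins 4 were nearest (23.5%, 7 sites, 11.6 per Mb). Beside Fos these were Nfe2l2, the antioxidant response factor NRF2, with 1026 bp at 26.98 kb, Jun with 722 bp at 23.0 kb and Fosl1 with 598 bp at 2.62 kb.

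Of 18 circadian clock genes 5 were nearest to a site (27.8%, 9.57 per Mb). Arntl, which encodes the clock activator BMAL1, had sites of 1331 and 1185 bp at 44.1 and 30.2 kb upstream, and Hlf had 1623 bp at 7.29 kb. Per1, Bhlhe41 and Cry1, repressors in the clock loop, had sites of 753, 457 and 452 bp. Clock genes thus had sites on both the activating and the repressing limb.

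Signalling genes had sites with few end peaks. Of 22 genes of TGF-β, Notch and Wnt signalling 6 were nearest to a site (27.3%, 5.31 per Mb), and 2 of the 22 had an end peak. The 6 were Hes1, Fzd7, Axin2, Smad7, Tgfbr1 and Smad6, with widths of 964 to 1320 bp. Of 24 secreted stress factors and cytokines 6 were nearest (25%, 5.12 per Mb), and 2 of the 24 had an end peak. Tgfb2 had 1670 bp at 35.7 kb, Lif 1555 bp at 27.05 kb, Csf1 1293 bp at 7.91 kb, Il6 1040 bp at 40.0 kb, Vegfa 705 bp at 12.6 kb and the stress hormone Gdf15 596 bp at 2.22 kb.

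Genes that define muscle cells were near the background. Of 26 skeletal muscle identity genes 2 were nearest to a site (7.69%, 2.54 per Mb), Myh2 with 681 bp and Mef2d with 482 bp, and 0 had an end peak. With both flanking genes counted, 4 of the 26 had a site (15.4%), against 9.44% of all coding genes. Of 16 genes of muscle atrophy and growth arrest 4 were nearest (25%, 6.99 per Mb), with Igfbp5 at 1702 bp, Klhl40 at 1572 bp, Fbxo31 at 1372 and 676 bp, and Mt1 at 615 bp. Of 17 BCL2 family and death receptor genes 2 were nearest (11.8%, 4.62 per Mb), Fas with 1388 bp at 42.0 kb and Mcl1 with 1191 bp at 1.40 kb. Of 22 markers of other cell types 1 was nearest (4.55%, 1.30 per Mb), Gcg with 836 bp at 24.0 kb. With 16 to 28 genes a list, the Wilson intervals were wide, and differences between lists were not tested.

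Some centres between coding genes lay inside a non-coding gene. That held for 338 sites (20.6%, 18.7 to 22.6%), 319 of them in lncRNA genes, against 22.7% of far intergenic peaks (20.2 to 25.3%). The share was 6.46% for peaks inside coding genes and 8.42% for peaks at coding gene ends. How much of the sequence in each position lies inside non-coding genes is not given here, so these shares have no background beside them. Within 1 kb of an lncRNA gene end lay 142 sites (8.65%, 7.38 to 10.1%), against 6.23% of far intergenic peaks (4.91 to 7.88%) and 12.6% of peaks at coding gene ends (11.4 to 14.0%). The intervals of the sites and of the far intergenic peaks overlapped in both shares.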

How the data were processed

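ATF4 CUT&Tag was analysed in 2 groups of 2 samples, C2C12 cells given thapsigargin or DMSO, and the other 8 groups were not used here. The deposited lists give chromosome, start and end of each peak; no other unit is in them. Per the submitters' processing notes, the authors used the build mm10, MACS2 2.2.7.1, Bowtie2 and Trim Galore 0.6.10, without stated roles. Control, peak threshold and treatment of replicates were not given in the sources used here, depth is unknown, and a longer list can reflect depth or threshold as well as binding.

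Peaks overlapped when they shared 1 bp. Gene positions and promoter windows came from RefSeq tables of GRCm38.p6, the assembly of mm10, and coordinates count from 1. Strand came from the promoter table. Shares have 95% Wilson intervals and densities exact Poisson intervals (Python 3.11.15, scipy 1.17.1). The counting was checked on simulated peaks. The sites, lists and comparisons were chosen with earlier results of these data known. Named were the 15 widest sites, 5 on each side of each limit, the 10 genes with most sites, up to 6 genes per list and the 5 runs with most sites, ties by span. The planned motif search over whole peaks needs a genome, and promoter windows replaced it. Alternatives changed the distance limits, the gene types, the windows, the spacing, the overlap and the gene assignment.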

Additional observations from a re-analysis of the deposited data

How the results depend on the processing

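Over 25 results and 84 alternatives, 67 values stayed within the interval or the 1.5-fold range of the reported value and 17 moved. With genes of all types in the rule, the median distance was 10.2 kb, the share of sites whose nearest gene of any type had an end peak was 10.6% for thapsigargin and 0.810% for DMSO, against 8.45 and 0.702% of genes of all types, and the share with another peak within 12500 bp was 18.6%. The median distance was 9.57 kb with an upper limit of 25 kb, 19.99 kb with 100 kb, 15.4 kb with a lower limit of 2 kb and 18.5 kb with 5 kb, as the limits set the range. With windows of 0.5, 3 and 5 kb at gene ends the thapsigargin share was 18.5, 26.7 and 30.7%, and the DMSO share was 3.11% at 5 kb. The spacing share was 7.86% at 5 kb and 37.1% at 25 kb. Assigning both flanking genes within 50 kb gave 8 Kruppel-like and early response genes (50%) in place of 5, and 4 muscle identity genes (15.4%) in place of 2, while 2043 or 9.44% of all coding genes were counted in place of 1423. Counting any overlap, 24.2% of sites met a non-coding gene. The causes were not tested beyond what these settings do by construction. The promoter-window motif search was chosen after seeing the data, and the planned searches over whole peaks or the bases around their centres were not run, as no genome was used here. No paired analysis was possible because each treatment has 1 peak list without samples. Leaving out a replicate could not be done for the same reason, and no depth was known.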

Other observations

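Transfer RNA genes, which RNA polymerase III transcribes, overlapped 13 of the sites (0.792%, 95% Wilson interval 0.463 to 1.35%), against 1 of 1027 far intergenic peaks, 1 of 2648 peaks inside coding genes and 16 of 2505 peaks at gene ends (0.639%), all thapsigargin-only. How many tRNA genes lie in each of these positions is not given here, so the counts have no background beside them. The 13 sites overlapped 20 of the 408 tRNA genes in the table, and were 355 to 2006 bp wide with a median of 1029 bp. The site nearest to Trim55 (1374 bp, chr3:19627849-19629222) overlapped 4 tRNA genes, and the one nearest to Osbp (2006 bp, chr19:12010218-12012223) overlapped 3. Small nuclear RNA genes overlapped 10 sites, small nucleolar RNA genes 2, and 1 site, upstream of Irf1, held a microRNA gene, Mir7671 (chr11:53763058-53764145). Near-identical copies of tRNA and small RNA genes can share reads, and the handling of such reads is not given in the sources used here. These overlaps were looked at after the values were seen.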
